A study of Saccharomyces cerevisiae YPS1009 with 18 samples.

Results

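Aminoacyl-tRNA synthetases were followed as plasmid barcodes in a gene-dosage screen of yeast. The list held 37 genes by systematic name: 21 whose enzyme charges tRNA in the cytosol (5 of these also serve mitochondria), 14 of mitochondria only, the cofactor ARC1 and GRS2, a paralogue of GRS1. Of the 37 genes, 27 had a row among the 4872 rows of the count table. HTS1 (histidyl) had 0 counts in all 18 libraries, which allows up to 0.419 to 0.756 CPM (counts per 1000000 counts of a library) in a T0 library. The other 26 all passed the filter on low counts, which left 4508 plasmids in all. They were 14 cytosolic synthetases, 11 mitochondrial ones and ARC1, and "synthetase plasmids" below means these 26. YDR341C (arginyl), DED81 (asparaginyl), CRS1 (cysteinyl), YHR020W (prolyl), WRS1 (tryptophanyl), VAS1 (valyl), the mitochondrial genes MSD1, MSF1 and NAM2, and GRS2 were not analysed here.

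In the screen, each low-copy MoBY plasmid carried 1 yeast gene with its native flanks and a DNA barcode, and the share of each barcode in a library was read by sequencing. Libraries came from AGY1612 and AGY1611, both haploid MATa ho-Δ1 derivatives of the oak-soil isolate YPS1009, at T0 (leftover frozen stock), day 1 and day 28 of culture in rich YPD medium with G418. AGY1612 is his3-Δ and carries a duplicated chromosome XII, marked with His3MX6 and NatMX in the region between BER1 and INA1. AGY1611 is the euploid strain, with NatMX at that place. The labels give only strain numbers, and the ploidy comes from the methods of the study. Each of the 6 groups had 3 replicates, taken from 2 separate transformations, so p-values measure the spread between these libraries. Day 1 and day 28 cells were plated on YPD with G418 after culture and scraped from lawns. The T0 stock came from scraped colonies of the transformation and did not go through this later plating. Time in culture and the later plating thus cannot be told apart in a comparison with T0. A lower barcode share can come from fewer cells that carry a plasmid or from fewer plasmid copies per cell, and these cannot be told apart.

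Each aminoacyl-tRNA synthetase joins an amino acid to its own tRNAs, which then bring it to the ribosome. Yeast cytosol and mitochondria each run a translation system, and for many amino acids a separate nuclear gene encodes the mitochondrial enzyme, while for others 1 gene serves both compartments. Cytosolic synthetases are essential for growth, and loss of a mitochondrial one blocks respiration. Here the chromosomal copy of every synthetase gene was present, and the plasmid added dosage.

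Total counts were 3491412 to 6298768 per T0 library and 503569 to 1925967 per day 1 or day 28 library. None of the synthetase plasmids was at 0 in a T0 library. At day 28, 3 to 6 of the 26 were at 0 in AGY1612 libraries and 1 to 7 in AGY1611 libraries. The spread between replicates was far smaller at T0 than later. In AGY1612 the synthetase plasmids had a median coefficient of variation of 5.54% (T0), 50.9% (day 1) and 48.2% (day 28), where all tested plasmids had 5.72%, 49.1% and 50.9%. In AGY1611 the synthetase plasmids had 3.88%, 69.3% and 59.2%, where all tested plasmids had 3.96%, 55.4% and 54.1%.

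**Figure D1:**
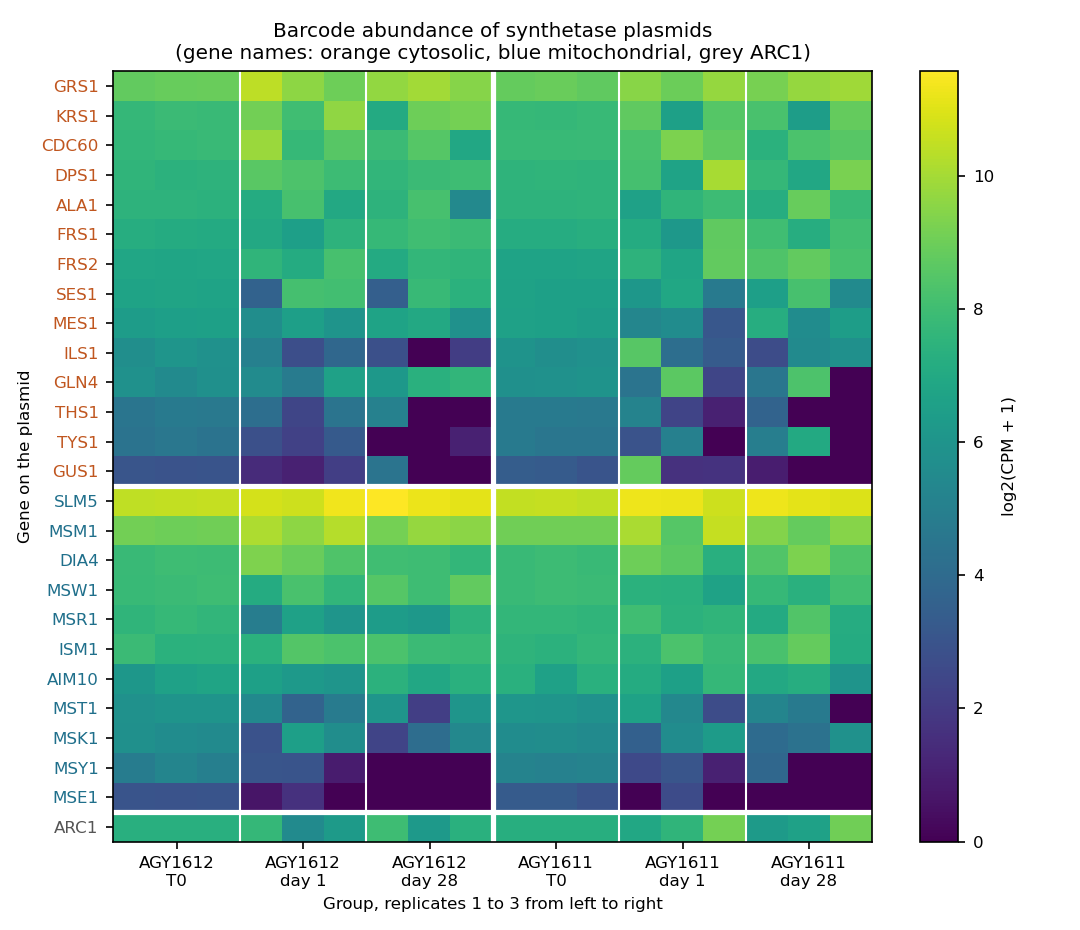
Barcode abundance of the 26 synthetase plasmids, as log2(CPM + 1), in all 18 libraries. Rows are genes ordered by T0 abundance within each class, and columns are replicates 1 to 3 of each group. SLM5 was brightest in every library, and most of the dark cells at day 28 belonged to plasmids that were scarce at T0.

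The plasmids entered the screen at very unequal levels. Averaged over the T0 libraries, the mitochondrial asparaginyl enzyme SLM5 (YCR024C) stood at 1449 CPM, the second most abundant of 4508 plasmids. MSM1 (mitochondrial methionyl) followed at 530 CPM and GRS1 (glycyl, of both compartments) at 460 CPM. At the low end, the glutamyl pair MSE1 (mitochondrial) and GUS1 (cytosolic) stood at 7.59 and 7.82 CPM, and TYS1, THS1 and MSY1 at 22.2, 24.7 and 33.5 CPM. When all plasmids were split by T0 level into 4 equal bins, the lowest bin (1127 plasmids, up to 80.0 CPM) held 9 of the synthetase plasmids. These were MST1, ILS1, GLN4, MSK1, MSY1, THS1, TYS1, GUS1 and MSE1, of which 5 are cytosolic and 4 mitochondrial.

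The T0 pools of the strains were compared first. No synthetase plasmid was called between the strains there (0 of 26 in the edgeR quasi-likelihood test at FDR < 0.1, against 0% of all plasmids called). In that fit, 0 of the 26 reached an unadjusted p under 0.05, as did 0% of all plasmids. That fit gives each plasmid 1 spread for all 6 groups, and replicates spread far more at day 1 and day 28. It could thus hardly detect a difference at T0. When the T0 libraries were fitted alone, 1 of the 26 did (against 3.09% of all plasmids), AIM10 (YER087W), a gene for a mitochondrial prolyl enzyme. AIM10 stood at 68.6, 95.8 and 108 CPM in the AGY1612 libraries and 160, 98.7 and 161 CPM in those of AGY1611, a log2 difference of -0.61 ± 0.24 (SE) in the fit of T0 alone, with FDR = 0.989. Its T0 replicates spread more than those of any other synthetase plasmid in either strain, and the strains overlapped.

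At day 28 the largest changes were losses. In AGY1612, 6 of the 26 plasmids differed from T0 at FDR < 0.1, where 19.9% of all plasmids did. GRS1 and SLM5 rose (2 of 26, against 6.99% of all plasmids higher), and ILS1, TYS1, MSY1 and MSE1 fell (4 of 26, against 12.9% lower). In AGY1611, 2 of the 26 differed, where 14.6% of all plasmids did. FRS2 rose (1 of 26, against 5.12% higher) and MSE1 fell (1 of 26, against 9.49% lower). The share of synthetase plasmids called in AGY1612 was thus near that of the library as a whole, and in AGY1611 it was smaller, on a count of 2. Calls over the whole library depended on which replicate was left out, and those of the synthetase plasmids went with them. Without replicate 2 of every group, 0 of the 26 were called in AGY1612 and 0 in AGY1611, where 4.68% and 3.46% of all plasmids still were. Without replicate 1 the count was 3 in AGY1612 and 2 in AGY1611 (6.77% and 5.69% of all plasmids), and without replicate 3 it was 4 and 2 (16% and 9.44%). Without replicate 1, THS1 (cytosolic threonyl) joined ILS1 and MSY1 in AGY1612, and the calls in AGY1611 were THS1 and MSY1 in place of FRS2 and MSE1. The day 28 counts of THS1 in both strains and of MSY1 in AGY1611 all lay in the replicate left out there. These added calls thus rest on the libraries that held 0 counts. With all replicates kept, none of these passed in the main fit. All passed as lower under limma voom (FDR = 0.0242 and 0.0282 for THS1 in AGY1612 and AGY1611, 0.00337 for MSY1 in AGY1611). Counted by replicate, 10 of 26 synthetase plasmids lay above their T0 mean in all 3 AGY1612 cultures and 6 below it, where 25% and 29% of all plasmids did. In AGY1611 the numbers were 5 above and 6 below, where 23.2% and 27.1% of all plasmids did.

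**Figure D2:**
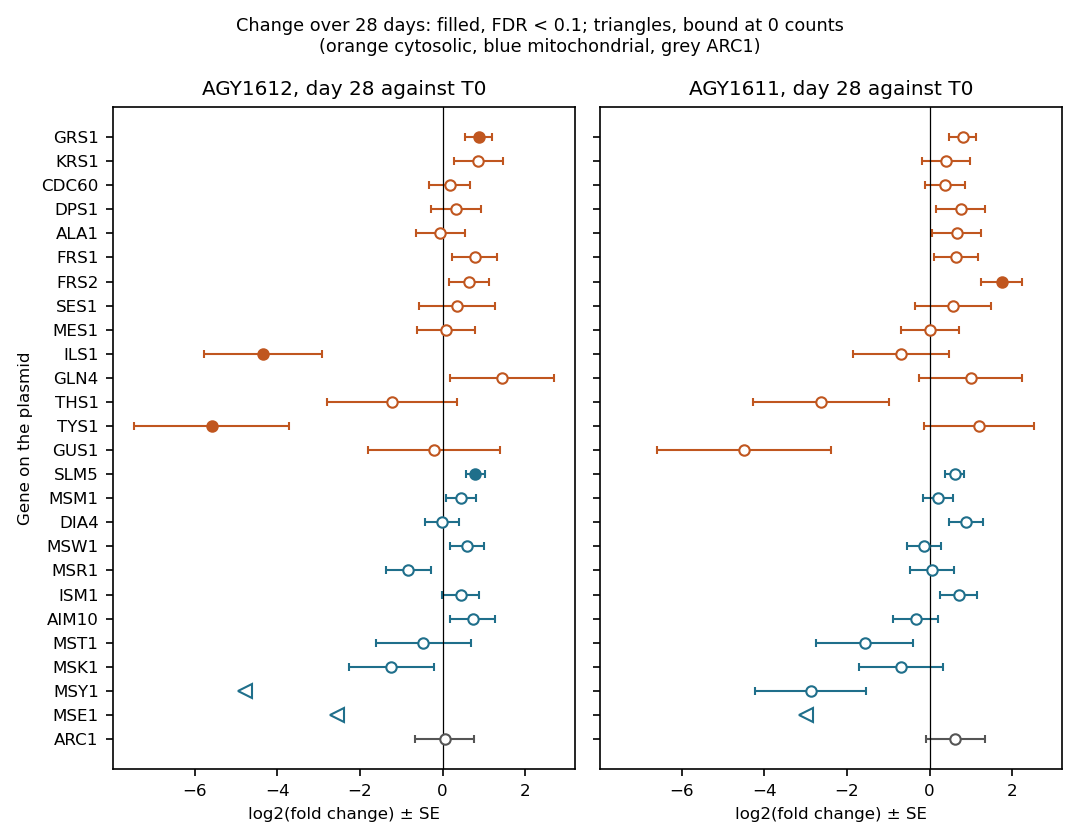
Fitted log2(fold change) ± SE of each synthetase plasmid at day 28 against T0, in AGY1612 (left) and AGY1611 (right), with genes in order of T0 abundance within each class. Filled symbols passed FDR < 0.1, and triangles mark the bound for plasmids with 0 counts at day 28, all 3 of which passed. The plasmids with the widest error bars are those that were scarce at T0.

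For tyrosine, the cytosolic and the mitochondrial plasmid both passed the test as lower in AGY1612, which neither strain showed for the other 6 amino acids with both enzymes measured. MSY1 (YPL097W), the mitochondrial tyrosyl-tRNA synthetase, was at 28.3, 37.8 and 31.2 CPM at T0, 7.17, 7.01 and 0.859 CPM at day 1 and 0 counts in all 3 day 28 libraries of AGY1612. The AGY1611 libraries held 35.4, 33.3 and 35.2 CPM at T0, 4.80, 7.4 and 1.11 CPM at day 1 and 13.6, 0 and 0 CPM at day 28. Every day 1 and day 28 library of both strains thus lay below every T0 library. Set against a floor of 3 counts over the group, MSY1 was at least 27.7-fold lower at day 28 than at T0 in AGY1612 (edgeR FDR = 0.0129). In AGY1611 the log2(fold change) was -2.88 ± 1.35 (SE), which did not pass the test (edgeR FDR = 0.194). The difference between strains did not pass (edgeR FDR = 0.688).

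TYS1 (YGR185C), the cytosolic tyrosyl-tRNA synthetase, was at 19.9, 22.9 and 20.4 CPM at T0, 6.07, 3.78 and 8.59 CPM at day 1 and 0, 0 and 1.08 CPM at day 28 in AGY1612. AGY1611 had 25.9, 22.2 and 22.0 CPM at T0, 6.72, 31.7 and 0 CPM at day 1 and 29.8, 131 and 0 CPM at day 28. All AGY1612 cultures had lost most of the plasmid by day 28, while the AGY1611 cultures lay above, far above and below their T0 level. The day 28 libraries of AGY1612 held 1 TYS1 count in all, 53.4-fold lower than at T0 with a 95% counting interval of 9.51 to 2114 (edgeR FDR = 0.0508), and the interval covers counting error only. In AGY1611 the log2(fold change) was 1.20 ± 1.33 (edgeR FDR = 0.618), and its sign turned without replicate 2 (-0.65). The strain difference in the response had the lowest adjusted value of the synthetase plasmids and did not pass (edgeR FDR = 0.429).

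ILS1 (YBL076C), the cytosolic isoleucyl-tRNA synthetase, also fell in AGY1612. There it was at 52.2, 63.8 and 57.5 CPM at T0, 32.0, 5.93 and 13.7 CPM at day 1 and 6.16, 0 and 3.24 CPM at day 28. For AGY1611 the values were 61.2, 50.8 and 57.5 CPM at T0, 379, 16.9 and 8.85 CPM at day 1 and 5.42, 44.8 and 54.5 CPM at day 28. The day 28 libraries of AGY1612 all lay below T0, whereas in AGY1611 a single day 28 library was low and the others lay within or near the T0 range. The log2(fold change) at day 28 was -4.35 ± 1.42 in AGY1612 (SE, n = 3, edgeR FDR = 0.0447) and -0.70 ± 1.16 in AGY1611 (edgeR FDR = 0.755). The strain difference of -3.65 ± 1.79 did not pass (edgeR FDR = 0.732). The mitochondrial isoleucyl enzyme, ISM1, gave 0.44 ± 0.45 in AGY1612 and 0.70 ± 0.45 in AGY1611, and neither passed (edgeR FDR = 0.557 and 0.349).

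The glutamyl enzymes were the scarcest of the set, and their values rest on few counts. MSE1 (YOL033W), the mitochondrial glutamyl-tRNA synthetase, had 38, 27 and 41 counts at T0, 1, 4 and 0 at day 1 and 0 in each day 28 library of AGY1612. In AGY1611 it had 63, 64 and 48 counts at T0, 0, 5 and 0 at day 1 and 0 in each day 28 library. It was the 1 synthetase plasmid called lower in both strains in the main fit. The fall was at least 5.88-fold in AGY1612 (edgeR FDR = 0.0504) and at least 8.02-fold in AGY1611 (edgeR FDR = 0.0447). These bounds are small because the T0 level was itself low, with a mean of 6.90 CPM for AGY1612 and 8.28 CPM for AGY1611.

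GUS1 (YGL245W) is the cytosolic glutamyl-tRNA synthetase, which binds the cofactor ARC1. GUS1 was held up by a single culture at day 1 in AGY1611 and at day 28 in AGY1612. In AGY1612 it had 40, 27 and 42 counts at T0, 3, 2 and 4 at day 1 and 10, 0 and 0 at day 28. In AGY1611 it had 67, 63 and 51 counts at T0, 471, 2 and 2 at day 1 and 1, 0 and 0 at day 28. The 471 counts of AGY1611 replicate 1 at day 1 were 452 CPM, where the other day 1 libraries of both strains held 1.08 to 3.44 CPM. From day 1 to day 28, 1 of 26 synthetase plasmids was called in AGY1611 (GUS1, lower at day 28, edgeR FDR = 0.0963), against 0.954% of all plasmids, and 0 of 26 in AGY1612, against 1.53%. The GUS1 call was lost without replicate 1, 2 or 3 of each group and with the replicate number as a block, which gave 0 calls in AGY1611. Between day 1 and day 28, 3 of the 26 in AGY1612 and 2 in AGY1611 had an unadjusted p under 0.05, where 11.4% and 9.52% of all plasmids did. Against T0, GUS1 at day 28 in AGY1611 was 24.8-fold lower with a counting interval of 4.4 to 987, which did not pass (edgeR FDR = 0.191). It passed with the replicate number as a block (edgeR FDR = 0.0849), as a block within strain (edgeR FDR = 0.0557) and under limma voom (FDR = 0.0790).

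**Figure D3:**
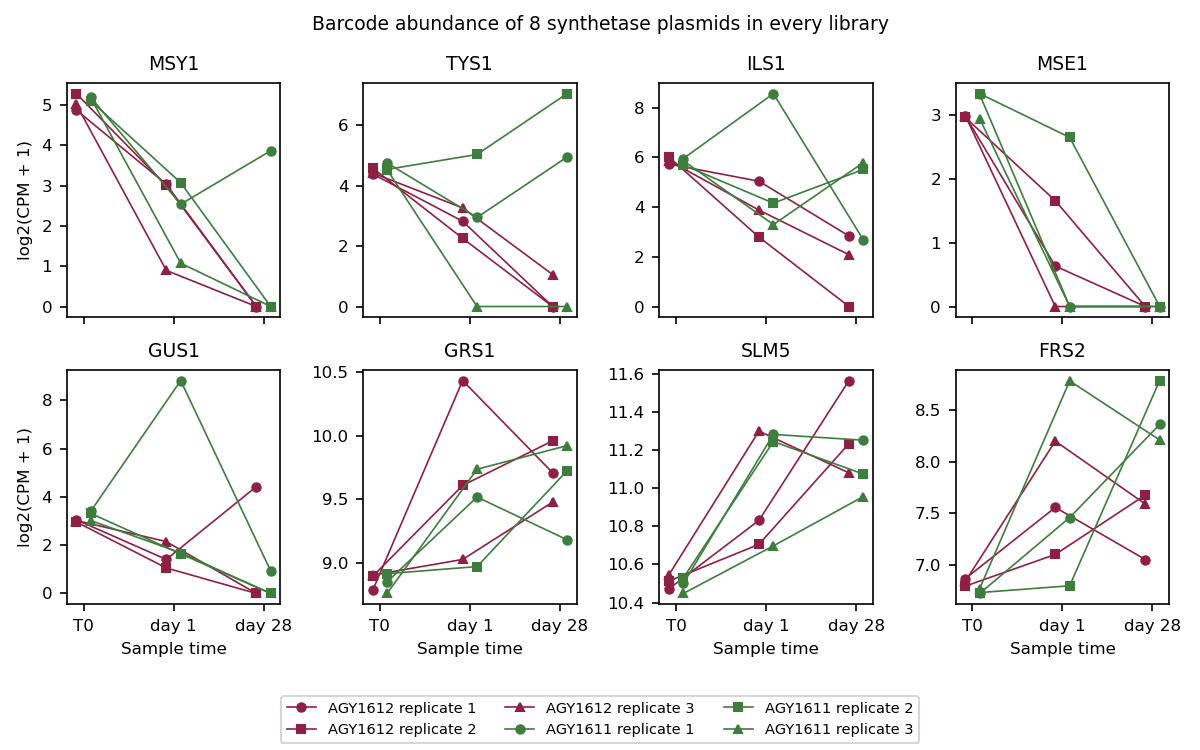
Abundance, as log2(CPM + 1), of the 8 synthetase plasmids called in any comparison, in every library of AGY1612 (dark red) and AGY1611 (green). Lines join samples of the same replicate number, and each panel has its own vertical scale. MSY1 and MSE1 reached 0 at day 28 in all 3 AGY1612 cultures, TYS1 in 2 of them, and SLM5 lay above T0 at day 1 and day 28 in every culture.

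Among the plasmids that rose, SLM5 had the highest level and the smallest fitted change. It was at 1420, 1461 and 1494 CPM at T0, 1821, 1669 and 2521 CPM at day 1 and 3030, 2408 and 2165 CPM at day 28 in AGY1612. AGY1611 libraries gave 1448, 1477 and 1396 CPM at T0, 2490, 2427 and 1660 CPM at day 1 and 2438, 2155 and 1986 CPM at day 28. Every later library lay above every T0 library in both strains. By a looser measure, 25% of all plasmids in AGY1612 and 23.2% in AGY1611 lay above their T0 mean in all 3 day 28 cultures. At day 1 these shares were 22.2% and 15.3%. They also bear on the groups above T0 given below for GRS1, FRS1, GLN4 and GCN4. The log2(fold change) of SLM5 at day 28 was 0.80 ± 0.23 in AGY1612 (SE, n = 3, edgeR FDR = 0.0275). In AGY1611 it was 0.61 ± 0.23, just outside the threshold (edgeR FDR = 0.102). The strain difference of 0.19 ± 0.33 did not pass (edgeR FDR = 1). The median of all plasmids was itself 0.19 in AGY1612 and 0.16 in AGY1611. Measured from those medians, SLM5 lay 0.61 and 0.45 above the library. With scaling to total counts the library medians were -0.11 in AGY1612 and -0.14 in AGY1611, SLM5 still lay 0.62 and 0.45 above them, and its call in AGY1612 was lost.

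GRS1 (YBR121C), which encodes the glycyl-tRNA synthetase of cytosol and mitochondria, was at 439, 474 and 477 CPM at T0, 1383, 780 and 520 CPM at day 1 and 835, 995 and 712 CPM at day 28 in AGY1612. The values in AGY1611 were 460, 481 and 432 CPM at T0, 731, 500 and 852 CPM at day 1 and 579, 844 and 969 CPM at day 28. As for SLM5, all later libraries lay above all T0 libraries of the same strain. The log2(fold change) at day 28 was 0.87 ± 0.33 in AGY1612 (edgeR FDR = 0.0824) and 0.80 ± 0.33 in AGY1611, which did not pass (edgeR FDR = 0.135). The AGY1612 call was the least secure of the 6: it was lost in 8 of 14 other settings, among them scaling by RLE or by total counts. GRS1 lay 0.69 above the library median in AGY1612 with TMM and 0.68 with total counts.

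FRS1 (YLR060W) and FRS2 (YFL022C) encode the beta and alpha subunits of the cytosolic phenylalanyl-tRNA synthetase, which works as a tetramer of both. FRS2 was at 115, 110 and 113 CPM at T0, 187, 136 and 293 CPM at day 1 and 131, 203 and 191 CPM at day 28 in AGY1612. The AGY1611 libraries held 104, 105 and 108 CPM at T0, 175, 110 and 440 CPM at day 1 and 328, 441 and 295 CPM at day 28. FRS2 rose at day 28 in AGY1611, by 1.75 ± 0.50 on the log2 scale (SE, n = 3, edgeR FDR = 0.0297), and gave 0.64 ± 0.49 in AGY1612, which did not pass (edgeR FDR = 0.417). The difference between strains was -1.11 ± 0.69 (edgeR FDR = 0.869). The call was lost without replicate 1 and without replicate 2.

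FRS1 lies on chromosome XII in the S288C gene table, so that AGY1612 carries an extra chromosomal copy. It was at 145, 136 and 134 CPM at T0, 124, 91.2 and 176 CPM at day 1 and 216, 261 and 236 CPM at day 28 in AGY1612. AGY1611 had 143, 142 and 149 CPM at T0, 138, 69.8 and 432 CPM at day 1 and 260.2, 148 and 269.5 CPM at day 28. At day 28 in AGY1612 every library lay above T0 and the replicates varied less than for any other synthetase plasmid (coefficient of variation 9.62%). The log2(fold change) of 0.78 ± 0.54 in AGY1612 and 0.64 ± 0.54 in AGY1611 did not pass (edgeR FDR = 0.368 and 0.487), in a fit that gives each plasmid 1 spread for all 6 groups.

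DPS1 (YLL018C), the cytosolic aspartyl-tRNA synthetase, was the other measured gene of chromosome XII. It was at 189, 171 and 179 CPM at T0, 387, 318 and 241 CPM at day 1 and 193, 232 and 249 CPM at day 28 in AGY1612. For AGY1611 the values were 181, 188 and 181 CPM at T0, 285, 103 and 1063 CPM at day 1 and 204, 120 and 603 CPM at day 28. The third culture of AGY1611 was high at both times and the second low at both. The day 28 log2(fold change) was 0.32 ± 0.60 in AGY1612 and 0.75 ± 0.60 in AGY1611, and neither passed (edgeR FDR = 0.761 and 0.465). The strain difference in response passed for neither FRS1 nor DPS1 (0.14 ± 0.76 and -0.43 ± 0.85, edgeR FDR = 1 for each), and errors of this size leave room for differences of either sign.

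ARC1 (YGL105W), GUS1 and MES1 form a complex in which the ARC1 protein binds the glutamyl and the methionyl enzyme and helps to deliver tRNA. ARC1 was at 155, 158 and 157 CPM at T0, 207, 44.8 and 79.1 CPM at day 1 and 252, 75.1 and 160 CPM at day 28 in AGY1612. AGY1611 libraries gave 153, 149 and 151 CPM at T0, 120, 188 and 571 CPM at day 1 and 78.6, 97.5 and 527 CPM at day 28. The cultures of each strain lay on both sides of T0, and the third AGY1611 culture was high at both later times. MES1 (YGR264C), the cytosolic methionyl-tRNA synthetase, was at 83.6, 91.5 and 94.2 CPM at T0, 49.7, 92.3 and 62.7 CPM at day 1 and 105, 124 and 56.2 CPM at day 28 in AGY1612. The values in AGY1611 were 98.0, 94.7 and 85.0 CPM at T0, 38.4, 48.6 and 7.74 CPM at day 1 and 145, 48.3 and 86.3 CPM at day 28. All its AGY1611 libraries at day 1 lay below T0, with a log2(fold change) of -1.55 ± 0.73 that did not pass (edgeR FDR = 0.292). Of all plasmids, 28.3% lay below their T0 mean in all 3 AGY1611 cultures at day 1. The first AGY1611 culture of MES1 was then high at day 28. At day 28 the log2(fold change) of ARC1 was 0.05 ± 0.71 in AGY1612 and 0.63 ± 0.71 in AGY1611, that of MES1 was 0.08 ± 0.70 and 0.01 ± 0.70, and neither passed in either strain (edgeR FDR from 0.628 to 0.991).

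The other cytosolic synthetases were ALA1, CDC60, GLN4, KRS1, SES1 and THS1. The other mitochondrial ones were AIM10, DIA4, ISM1, MSK1, MSM1, MSR1, MST1 and MSW1. None of these was called at day 28 in either strain in the main fit. Their log2(fold change) ran from -1.24 (MSK1) to 1.44 (GLN4) in AGY1612 and from -2.63 (THS1) to 1.00 (GLN4) in AGY1611. Limma voom called DIA4 higher in AGY1611 (FDR = 0.0896) and, as given above, THS1 lower in both strains. The scarce ones again varied most. THS1 (YIL078W), the cytosolic threonyl enzyme, kept 16, 0 and 0 counts at day 28 in AGY1612 and 13, 0 and 0 in AGY1611, so that 1 culture of each strain carried all that remained. GLN4 (YOR168W), the glutaminyl enzyme, was at 69.8, 160 and 192 CPM at day 28 in AGY1612, all above its T0 libraries (44.9 to 55.8 CPM). The AGY1611 libraries held 22.6, 320 and 0 CPM at day 28, against 55.7, 56.2 and 60.3 CPM at T0, and the second culture was already at 402 CPM at day 1.

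At day 1, 0 of 26 synthetase plasmids passed in AGY1612, where 2.86% of all plasmids did, and 0 of 26 in AGY1611, where 0.288% did. At an unadjusted p under 0.05 the numbers were 6 and 8, where 21% and 16.5% of all plasmids passed. The lowest adjusted value was that of the mitochondrial arginyl enzyme MSR1 (YHR091C) in AGY1612, which was at 29.2, 98.2 and 64.4 CPM at day 1, against 186, 211 and 196 CPM at T0 (log2(fold change) -1.63 ± 0.55, edgeR FDR = 0.123). All its day 1 libraries lay below T0. MSR1 passed under DESeq2 (FDR = 0.0144), limma voom (FDR = 0.0711) and total-count scaling in edgeR (FDR = 0.0872). At day 28 it stood at 84.2, 70.7 and 179.5 CPM in AGY1612, again below T0, and gave -0.83 ± 0.54 (edgeR FDR = 0.34). In AGY1611, MSR1 overlapped T0 at both times.

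Cultures kept part of their day 1 pattern to day 28. The same replicate number had the highest abundance at both times for 11 of 26 synthetase plasmids in AGY1612, where 41.8% of all plasmids did so, and for 14 of 26 in AGY1611, where 50.4% did. Between T0 and day 28, which the replicate numbers do not pair, it was 4 of 26 in AGY1612 and 8 of 26 in AGY1611. Of all plasmids, 33.3% and 33.9% did so there. SES1 (YDR023W), the cytosolic seryl enzyme, was at 11.6, 286 and 265 CPM at day 1 and 10.3, 217 and 169 CPM at day 28 in AGY1612. Its first culture was thus low and the others high at both times, although all 3 T0 libraries held 103 to 107 CPM.

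The strain difference in the response was called for 0 of 26 synthetase plasmids at day 28, against 0.266% of all plasmids, and for 0 of 26 at day 1, against 0% of all plasmids. At an unadjusted p under 0.05 it was 2 of 26 at each time, where 6.94% of all plasmids passed at day 28 and 3.82% at day 1. At day 28 these were TYS1 and MSY1, both with the lower value in AGY1612.

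Cytosolic and mitochondrial enzymes were then compared as classes. Summed over each library, the 14 cytosolic plasmids held 1864 ± 39.7 CPM at T0, 3120 ± 669 CPM at day 1 and 2689 ± 613 CPM at day 28 in AGY1612 (SD, n = 3). In AGY1611 they held 1867 ± 13.7, 3112 ± 783 and 2982 ± 598 CPM. The 11 mitochondrial plasmids held 3088 ± 44.9, 4248 ± 497 and 4428 ± 381 CPM in AGY1612, and 3117 ± 30.8, 4371 ± 499 and 4119 ± 381 CPM in AGY1611. The mean sum of both classes was thus higher at day 1 and day 28 than at T0 in both strains. In CPM of total counts the means kept the same order, with smaller rises. The cytosolic plasmids held 2111 ± 46.5, 2976 ± 620 and 2468 ± 393 CPM in AGY1612, and 2117 ± 10.8, 2922 ± 484 and 2742 ± 441 CPM in AGY1611. The mitochondrial ones held 3497 ± 51.6, 4055 ± 461 and 4113 ± 559 CPM in AGY1612, and 3534 ± 33.9, 4162 ± 527 and 3812 ± 417 CPM in AGY1611. There, the day 28 rise of the cytosolic sum in AGY1612 and of the mitochondrial sum in AGY1611 was smaller than the day 28 SD. SLM5 carried much of the mitochondrial sum, which without it was 1629 ± 7.58, 2244 ± 43.9 and 1894 ± 129 CPM in AGY1612 and 1676 ± 25.1, 2179 ± 501 and 1926 ± 272 CPM in AGY1611.

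The medians of the classes were set beside that of the library. At day 28 against T0, the median fitted log2(fold change) in AGY1612 was 0.25 for cytosolic plasmids, -0.01 for mitochondrial ones and 0.19 for all 4508 plasmids. In AGY1611 it was 0.60, -0.14 and 0.16, with the cytosolic median above that of the library and the mitochondrial one below it. Of the 14 cytosolic plasmids, 9 were above 0 in AGY1612 and 11 in AGY1611, and of the 11 mitochondrial ones, 5 were in each strain. With total-count scaling, which lowers all values together, these counts were 7 and 10 for cytosolic and 5 and 3 for mitochondrial plasmids in AGY1612 and AGY1611. At day 1 the medians were 0.10, -0.13 and 0.13 in AGY1612 and 0.58, 0.05 and 0.05 in AGY1611. Putting plasmids with 0 counts at their bound changed no day 28 median. It could not do so, since their fitted values and bounds all lay below the class medians.

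The gap between the class medians at day 28 was smaller than its SD over replicates in AGY1612 and larger than it in AGY1611. This SD is over cultures that share the same plasmids, so it does not measure the spread between plasmids. In AGY1611 the fitted values ran from -4.50 to 1.75 for cytosolic and from -7.52 to 0.89 for mitochondrial plasmids. In AGY1612 they ran from -5.60 to 1.44 and from -9.49 to 0.80. At day 28, cytosolic minus mitochondrial was 0.25 in the fit for AGY1612, and computed per replicate it was 0.07, 0.65 and -0.20 (mean 0.17 ± 0.44, SD, n = 3). For AGY1611 it was 0.75 in the fit and 0.18, 0.50 and 0.56 per replicate (mean 0.42 ± 0.21), so that the sign was the same in all 3 cultures. The fit works on average counts and the replicate values on log2 CPM, so that a single high library weighs more in the fit. With the replicate number as a block within strain the AGY1611 gap was 0.20, and without replicate 3 it was 0.26. At day 1 the gap was 0.24 in AGY1612 (0.19, -0.18 and 0.51 per replicate) and 0.53 in AGY1611 (0.42, 0.15 and -0.51 per replicate), and the AGY1611 value was -0.018 without replicate 1. No test was made on these medians, and whether the gap differed between strains was not tested.

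**Figure D4:**
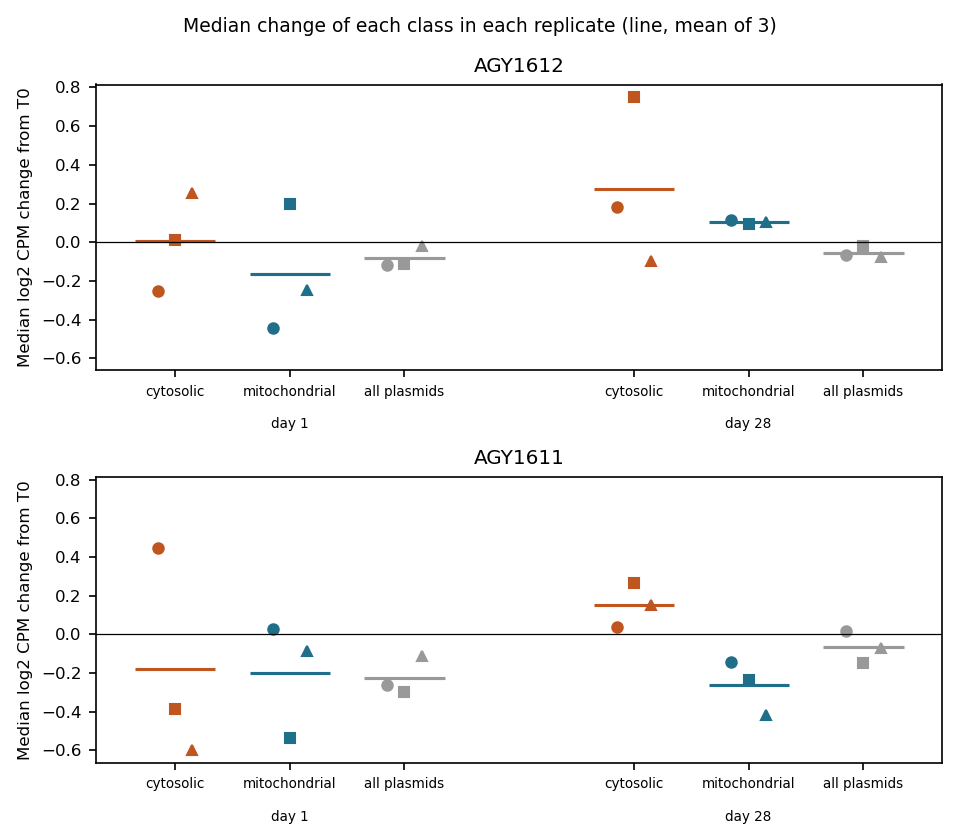
Median change from T0 in log2 CPM over the 14 cytosolic, 11 mitochondrial and all 4508 plasmids, for each replicate (circle, square and triangle for replicates 1, 2 and 3) and their mean (line), in AGY1612 (top) and AGY1611 (bottom). At day 28 in AGY1611 the cytosolic median lay above the mitochondrial one in every replicate, and in AGY1612 it did so in 2 of 3.

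For 7 amino acids both the cytosolic and the mitochondrial plasmid were measured: glutamate, isoleucine, lysine, methionine, serine, threonine and tyrosine. The fitted day 28 changes of the partners had the same sign for 4 of 7 amino acids in AGY1612 and 4 of 7 in AGY1611, and for 3 and 4 with total-count scaling. The glutamyl (GUS1 and MSE1) and threonyl (THS1 and MST1) partners had fitted values below 0 in both strains. In AGY1611 every day 28 library of these 4 plasmids lay below every T0 library. By a looser measure, 27.1% of all plasmids lay below their T0 mean in all 3 AGY1611 cultures at day 28. These 4 were all in the lowest T0 bin, where the median of all plasmids was -0.51 in AGY1611. Of the 4, only MSE1 passed the test in either strain in the main fit. The methionyl partner MSM1 gave 0.45 and 0.19 in AGY1612 and AGY1611, beside the 0.08 and 0.01 of MES1. With total-count scaling MSM1 gave 0.15 and -0.09 and MES1 -0.22 and -0.25. The lysyl partners had opposite signs: KRS1 gave 0.87 ± 0.59 and 0.40 ± 0.59 in AGY1612 and AGY1611, and MSK1 gave -1.24 ± 1.02 and -0.69 ± 1.01, none of which passed (edgeR FDR from 0.361 to 0.722).

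Synthetases fall into structural classes I and II by the fold of the catalytic domain. All 4 plasmids called lower in AGY1612 and the 1 in AGY1611 encode class I enzymes (12 measured). Of all plasmids, 12.9% and 9.49% were called lower. The plasmids called higher in either strain, SLM5, GRS1 and FRS2, encode class II enzymes (13 measured). Of all plasmids, 6.99% in AGY1612 and 5.12% in AGY1611 were called higher. The median log2(fold change) at day 28 was -0.06 for class I and 0.35 for class II in AGY1612, and 0.04 and 0.61 in AGY1611. Limma voom also called THS1, of class II, lower in both strains. The classes also differed in starting level, with a median of 74.2 CPM for class I and 142 CPM for class II, and 6 class I plasmids but 3 class II plasmids lay in the lowest T0 bin. The part of the starting level in this split was not tested.

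Starting level went with the course of the synthetase plasmids. All 4 falls in AGY1612 and the fall in AGY1611 lay in the lowest T0 bin, where 9 of the 26 were and where 16% of all plasmids in AGY1612 and 13.8% in AGY1611 were called lower. The median log2(fold change) of these 9 was -1.24 in AGY1612 and -1.57 in AGY1611, and that of all 1127 plasmids of the bin was -0.47 and -0.51. In the highest bin SLM5, MSM1 and GRS1 had a median of 0.80 in AGY1612 and 0.61 in AGY1611, where all plasmids had 0.27 and 0.29. There, 12.4% of all plasmids in AGY1612 and 10.5% in AGY1611 were called higher. Over all plasmids, lower calls were not confined to the lowest bin. From the second bin to the highest, 8.61%, 11.9% and 15.3% of all plasmids were called lower in AGY1612. In AGY1611 these shares were 5.94%, 7.81% and 10.5%. Across the 26 plasmids, log2 T0 CPM and the day 28 change had a Pearson's r of 0.60 and a Spearman's rho of 0.62 in AGY1612, and 0.71 and 0.42 in AGY1611. With plasmids at 0 counts set to their bound, r was 0.57 in AGY1612 and 0.69 in AGY1611. These describe plasmids that share libraries and a T0 estimate and are not independent replicates. Over all plasmids rho was 0.14 in AGY1612 and 0.18 in AGY1611. Gene length, from 1131 bp (ARC1) to 3273 bp (CDC60), had a Pearson's r of 0.10 with the day 28 change in AGY1612 and 0.03 in AGY1611.

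**Figure D5:**
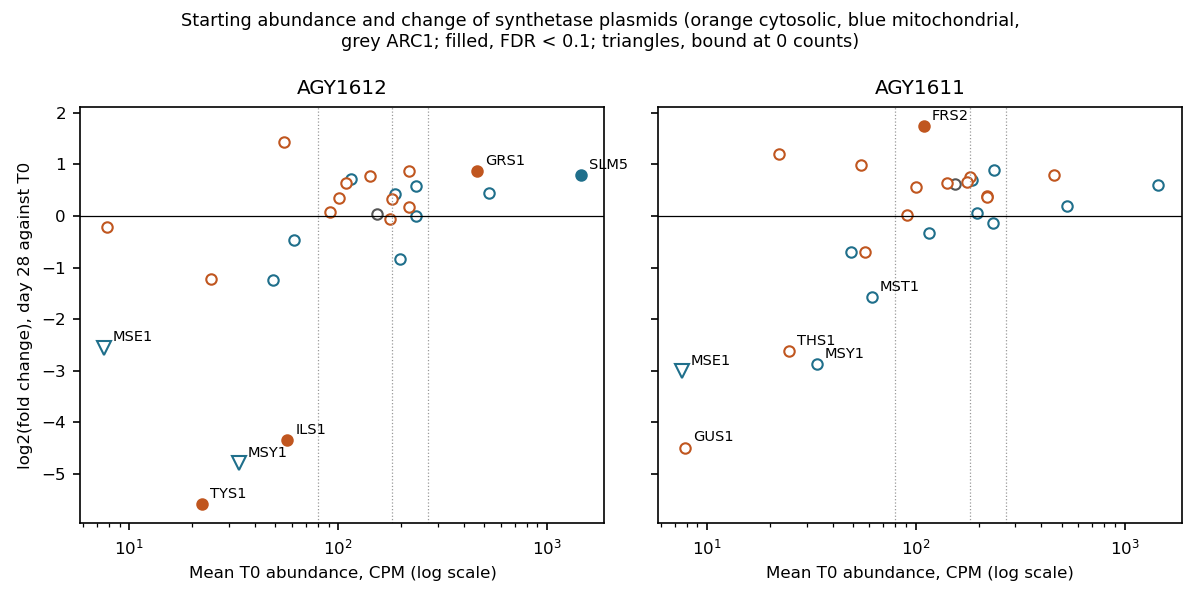
Mean T0 abundance in CPM (log scale) against the log2(fold change) at day 28 for each synthetase plasmid, in AGY1612 (left) and AGY1611 (right). Dotted lines part the 4 bins of all plasmids by T0 level, filled symbols passed FDR < 0.1 and triangles are bounds for 0 counts. Every plasmid called lower lies left of the first dotted line, at or below 80.0 CPM.

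Other genes that act on charged or uncharged tRNA were read from a list of 18, of which 15 were measured (THG1, GCN1 and TEF1 were not analysed here). In AGY1612 at day 28, 2 of the 15 rose (GCN4 and CCA1, where 6.99% of all plasmids did) and 2 fell (GCN2 and LOS1, where 12.9% did). In AGY1611, 2 fell (GCN2 and LOS1, where 9.49% of all plasmids did) and 0 rose. At day 1, 2 of the 15 were called in AGY1612 (CCA1 and TUF1, where 2.86% of all plasmids were) and 0 in AGY1611. GCN2 encodes the kinase that senses uncharged tRNA. Its plasmid was at 90.2, 76.4 and 63.3 CPM at T0, 7.72, 9.71 and 0 CPM at day 1 and 0, 0.873 and 0 CPM at day 28 in AGY1612. AGY1611 had 63.5, 65.6 and 63.2 CPM at T0, 13.4, 20.1 and 6.64 CPM at day 1 and 0, 0 and 1.51 CPM at day 28. With 1 count left per strain, GCN2 was 195-fold lower than at T0 in AGY1612 (counting interval 34.9 to 7712, edgeR FDR = 0.00438) and 186-fold lower in AGY1611 (33.4 to 7362, edgeR FDR = 0.00547). The GCN2 call in AGY1611 was lost without replicate 1 (edgeR FDR = 0.11) and without replicate 2 (edgeR FDR = 0.119).

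LOS1, the nuclear exporter of tRNA, was at 152, 33.2 and 53.0 CPM at day 28 in AGY1612, against 396, 409 and 383 CPM at T0, a log2(fold change) of -2.34 ± 0.52 (edgeR FDR = 0.00674). For AGY1611 the values were 141, 71.2 and 177 CPM at day 28, against 388, 393 and 397 CPM at T0 (-1.60 ± 0.51, edgeR FDR = 0.0492). GCN4, the transcription factor made when amino acids are short, was at 737, 706 and 918 CPM at day 28 in AGY1612, against 357, 390 and 370 CPM at T0 (1.08 ± 0.41, edgeR FDR = 0.0815). These groups did not overlap. In AGY1611, GCN4 was at 413, 1057 and 306 CPM at day 28, against 362, 359 and 356 CPM at T0, which overlapped (0.72 ± 0.41, edgeR FDR = 0.283). CCA1, which adds the CCA end to tRNAs, rose at day 1 in AGY1612 by 2.16 ± 0.49 on the log2 scale (edgeR FDR = 0.061) and at day 28 by 1.32 ± 0.48 (edgeR FDR = 0.07). In AGY1611 it gave -0.02 ± 0.47 at day 1 (edgeR FDR = 0.988) and 0.79 ± 0.48 at day 28 (edgeR FDR = 0.319). TUF1, the mitochondrial elongation factor that carries charged tRNA, rose at day 1 in AGY1612 by 1.5 ± 0.42 (edgeR FDR = 0.0841) and gave 0.02 ± 0.41 at day 28. In AGY1611, TUF1 gave 0.52 ± 0.41 at day 1 (edgeR FDR = 0.504) and 1.01 ± 0.41 at day 28 (edgeR FDR = 0.135), neither of which passed. With any 1 replicate left out, the calls of LOS1 in AGY1611 (edgeR FDR of 0.126, 0.269 and 0.15 without replicates 1, 2 and 3), GCN4 (0.276, 0.151 and 0.142), CCA1 at day 1 (0.372, 0.201 and 0.185) and TUF1 (0.396, 0.176 and 0.24) were lost. The call of LOS1 in AGY1612 was lost without replicate 2 (edgeR FDR = 0.107), and that of CCA1 at day 28 without replicate 1 (edgeR FDR = 0.144) or replicate 2 (edgeR FDR = 0.393). None of the 15 differed between strains in its response at day 1 or day 28 (edgeR FDR of at least 0.843), and at an unadjusted p under 0.05 CCA1 did at day 1, where 3.82% of all plasmids did.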

How the data were processed

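The deposited values are raw counts of barcode reads per plasmid, which the authors did not normalize in this table; the counting program is not given in the sources used here. All 18 sample columns were used. Gene names, lengths and chromosomes came from the RefSeq table of assembly R64 (strain S288C). Tests were run with edgeR 4.0.16 in R 4.3.3: filterByExpr by group, TMM scaling, 1 coefficient per group over all 18 libraries, two-sided quasi-likelihood F-tests, Benjamini-Hochberg adjustment over 4508 plasmids and FDR < 0.1, the relaxed value of the study. SE is the size of the log2(fold change) divided by the square root of F. CPM are TMM-scaled, and log2 CPM used a prior count of 2. Groups at 0 counts got a floor of 3 counts over the group, and groups with 1 to 3 counts an exact interval of the ratio, for counting error only. Samples were grouped by strain and time from the labels. The same replicate number went with like deviations at day 1 and day 28 (correlations 0.15 to 0.50) but not with T0, so the numbers, from the sample titles, pair only those times. Members called at FDR < 0.1, at 0 counts, in the ARC1 complex, among the FRS1, FRS2, GRS1 and GRS2 genes, or on chromosome XII are given per library. The members and lists were chosen with earlier results of these data known. Alternatives were RLE and total-count scaling, other filters, DESeq2 1.42.0, limma 3.58.1 voom with group weights, replicate blocks, each strain alone, no T0 libraries, FDR < 0.05, summed suffix rows, and each replicate left out. Figures used matplotlib.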

Additional observations from a re-analysis of the deposited data

How the results depend on the processing

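The number of synthetase plasmids called at day 28 against T0 in AGY1612, 6, was 3 with DESeq2, 3 at FDR < 0.05 and 0 to 4 with 1 replicate left out, where 21.9%, 13.2% and 4.68% to 16% of all plasmids were called. In AGY1611 the number, 2, was 1 with at least 50 counts required in all libraries of a group, 1 with DESeq2, 7 with limma voom, 1 with each strain alone and 0 to 2 with 1 replicate left out, where 14.4%, 16.9%, 23.8%, 13.6% and 3.46% to 9.44% of all plasmids were called. It was 3 with the replicate number as a block, where GUS1 joined the calls, and the block left the 6 of AGY1612. At day 1, 0 calls in AGY1612 became 1 with total counts, 1 with DESeq2 and 9 with limma voom (4.92%, 11.7% and 20.5% of all plasmids), and 0 in AGY1611 became 3 with limma voom (7.94%). The single call between day 1 and day 28 in AGY1611 became 0 without the filter, with DESeq2, with limma voom, with either replicate block, with the strain alone, without T0 libraries, at FDR < 0.05 and with any replicate left out (0 to 0). The gap between class medians in AGY1611 at day 28, 0.75, was 0.30 with limma voom, 0.45 with the replicate block, 0.20 with the block within strain and 0.26 to 0.91 with 1 replicate left out. At day 1 the gap, 0.53, was -0.023 with limma voom, 0.040 with the block within strain and -0.018 to 0.68 with 1 replicate left out. The gap in AGY1612 moved by less than its SD over replicates under every alternative run, with -0.14 to 0.40 at day 28 and 0.03 to 0.55 at day 1 when 1 replicate was left out. The causes were not tested. No called plasmid changed sign. MSY1 in AGY1612 kept its call in 13 of 14 settings, FRS2 in 12 of 14, ILS1, TYS1 and SLM5 in 11 of 14, MSE1 in 8 of 12 in AGY1612 and 9 of 11 in AGY1611, and GRS1 in 6 of 14. Among the other tRNA genes, GCN2 kept its call in 14 of 14 settings in AGY1612 and 12 of 14 in AGY1611, LOS1 in 13 and 11 of 14, CCA1 in 10 of 14 at day 1 and 9 of 14 at day 28, TUF1 in 7 of 14 and GCN4 in 6 of 14. Depth limits plasmids such as MSE1 and GUS1 most, since 3 counts in a day 28 library are 2.62 to 6.16 CPM.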
